A study of Mus musculus with 2 samples.

Results

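The cluster of miR-322, miR-503, miR-351, miR-542 and miR-450 is a group of miRNA hairpins on the mouse X chromosome, and its content in exosomes of bone marrow-derived mesenchymal stem cells (BMSCs) under low oxygen is described here. The cluster was taken as 10 mature miRNAs chosen by name, of 1881 mouse miRNAs on the array. The list was drawn up with the signals of these same arrays known, so the members' detection and their differences between the conditions are a description. Exosomes, small vesicles that cells release, came from the culture medium of BMSCs from C57BL/6 mice, multipotent stromal cells that according to the methods were bought from a company. The normoxia group was kept without oxygen reduction, at a level that the labels do not state, and the hypoxia group at 0.2% oxygen, both for 72 h. Both groups received the same medium with antibiotics and 10% serum, which the methods describe as depleted of bovine exosomes, and neither carried a genetic change that the labels name. According to the methods, exosomes were collected with a precipitation reagent. RNA of each group was labelled with Cy3 and hybridised to 1 Agilent mouse miRNA array, so there was 1 array per condition and no biological replicate, and no value below has a test.

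A miRNA hairpin is cut into a 5p and a 3p arm, and usually 1 of the arms is kept in the silencing complex. Bases 2 to 8 of the kept arm, the seed, pair with target mRNAs. The cluster is known to be transcribed together. Its first members, miR-322-5p (the mouse counterpart of human miR-424) and miR-503-5p, are counted with the miR-15/16 family, which is best known for restraining cyclins and other drivers of the cell cycle, and both are known from differentiating muscle. Human miR-424 is also known from hypoxic endothelium, where it targets CUL2, a scaffold of the ligase that degrades hypoxia-inducible factor.

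The mature sequences, whose seeds were used to find relatives outside the cluster, are shown here. They are those of RefSeq (GRCm38.p6, X chromosome, minus strand), in which all 10 members were found, and run 5′ to 3′ with the seed in capitals. The prefix mmu, for mouse, is left out further on.
mmu-miR-322-5p: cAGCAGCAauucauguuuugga
mmu-miR-503-5p: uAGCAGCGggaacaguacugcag
mmu-miR-322-3p: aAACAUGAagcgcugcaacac
mmu-miR-503-3p: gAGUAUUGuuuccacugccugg
mmu-miR-351-5p: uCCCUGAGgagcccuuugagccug
mmu-miR-351-3p: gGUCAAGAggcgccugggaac
mmu-miR-542-3p: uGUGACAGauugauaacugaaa
mmu-miR-542-5p: cUCGGGGAucaucaugucacga
mmu-miR-450a-5p: uUUUGCGAuguguuccuaauau
mmu-miR-450b-5p: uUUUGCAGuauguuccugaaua

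The 10 members carried 10 different seeds. From base 2 on, miR-322-5p and miR-503-5p were identical over 6 bases, so that their seeds differed in the last base alone. miR-450a-5p and miR-450b-5p matched at 15 of 22 positions. The seed of miR-322-5p was shared by 9 miRNAs outside the cluster that were on the array, and that of miR-351-5p by 4, among them miR-125a-5p and miR-125b-5p. A pair of miRNAs, 1 for each of these seeds, is shown for comparison with the members above.
miR-16-5p: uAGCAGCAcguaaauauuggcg
miR-125b-5p: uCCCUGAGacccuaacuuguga

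In RefSeq's gene table the 7 hairpins of the cluster lie within 6353 bases. In the direction of transcription they follow each other as Mir322, Mir503, Mir351, Mir542, Mir450-2, Mir450-1 and Mir450b. Mir503 begins 200 bases after the end of Mir322, and Mir351 630 bases after the end of Mir503. A stretch of 3767 bases separates Mir351 from Mir542. The first 3 hairpins lie within the extent of C430049B03Rik, a gene for a long non-coding RNA, and the other 4 do not.

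**Figure D1:**
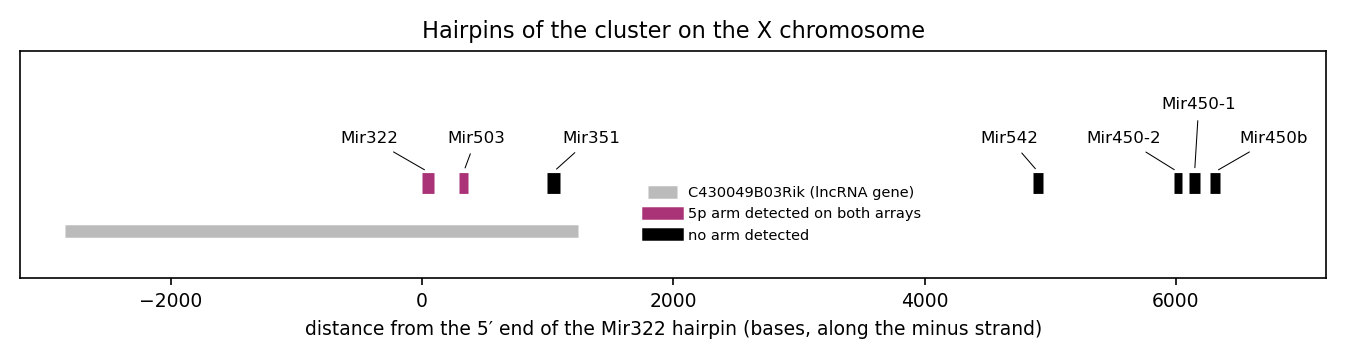
The 7 hairpins of the cluster by their distance in bases from the 5′ end of Mir322, along the minus strand of the X chromosome in GRCm38.p6. Only Mir322 and Mir503, which are 200 bases apart, gave an arm that was detected on the arrays, and the grey bar is the extent of C430049B03Rik.

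The labelled cell type was checked through miRNAs known from stromal and other cells. Of 8 markers of mesenchymal stromal cells, 7 were detected on each array, and miR-145a-5p on neither. Their summed processed signals were 37214 in normoxia and 32507 in hypoxia. The detected 7 included miR-21a-5p, miR-29a-3p and miR-22-3p, and whether the 8 are particular to stromal cells was not tested. Of 7 blood-cell markers, 4 were found on the array under the names used. Of these 4, 3 were detected in normoxia and 1 in hypoxia, with sums of 491.5 and 31.3. The 2 endothelial markers were not found on the array under the names used, so they were not assessed. Markers of epithelium (6 miRNAs) and neural cells (miR-124-3p and miR-9-5p) were not detected. However, miR-9-3p, the other arm of miR-9, which was not among the markers, was measured on both arrays. The liver miRNA miR-122-5p (78.5 and 7.04) was detected in normoxia only. Of 3 muscle markers, miR-206-3p alone was detected, on both arrays, and their sums were 34.9 and 22.8. The part of the blood and liver signal in the values below was not tested.

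The first question was which members of the cluster the exosomes contained. The scanner software marks spots that are well above background. A probe counted as detected with such a mark on more than 50% of its usable spots, and a miRNA with 1 such probe or more. By this rule miR-322-5p and miR-503-5p were detected in both normoxic and hypoxic exosomes, and the other 8 members in neither. That is 2 of 10, where 12.0% of all miRNAs on the array were detected in normoxia, 10.6% in hypoxia and 9.57% on both arrays. Both detected members were 5p arms of adjacent hairpins at the start of the cluster.

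The other 8 members had 26 probes. None of their 231 usable spots on the normoxia array and none of 230 on the hypoxia array was well above background. Their probe means lay between −5.68 and 4.56 in normoxia and between −4.66 and 3.43 in hypoxia, in units of processed signal, an intensity after background subtraction that can be negative. Negative control spots, which should bind no miRNA, averaged 4.28 ± 3.10 in normoxia (SD over 964 spots) and 4.28 ± 3.52 in hypoxia (SD over 979). The dimmest probe called detected for any miRNA gave 14.5 in normoxia and 13.5 in hypoxia.

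Among the opposite arms of the detected pair, the 30 usable spots of miR-322-3p ranged from −10.9 to 6.58 in normoxia, with a median of −1.65. Its 29 usable spots in hypoxia ranged from −8.98 to 5.39, with a median of −1.56. For miR-503-3p, the medians were −3.82 and −3.84. These medians lay below the mean of the negative controls on both arrays, whereas the 5p arms of the same hairpins were detected.

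miR-351-5p, which carries the seed of the miR-125 family, had spot medians of −1.16 in normoxia and −0.98 in hypoxia. Those of miR-351-3p were −0.46 and −2.05. No spot of either arm was well above background. Mir351 lies 630 bases from Mir503 and in the same long non-coding gene.

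miR-542-3p, known for targeting the apoptosis inhibitor survivin, was not detected. Its spot median was 4.0 in normoxia and 2.29 in hypoxia, with highest spots of 8.57 and 10.6. miR-542-5p gave medians of 2.60 and 1.28. miR-450a-5p, which is cut from both Mir450-1 and Mir450-2, gave 3.76 and 1.2, and miR-450b-5p gave 0.68 and 1.64. These medians too lay below the mean of the negative controls, and no direction between the conditions was read from them.

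The array also held 3 arms of the Mir450 hairpins that are not in the member list, miR-450a-1-3p, miR-450a-2-3p and miR-450b-3p. None of their 87 usable spots in normoxia and 86 in hypoxia was well above background. The highest single spot, 13.7, was that of miR-450b-3p in hypoxia. The array thus gave no measurable level for any arm of Mir351, Mir542 or the Mir450 hairpins.

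**Figure D2:**
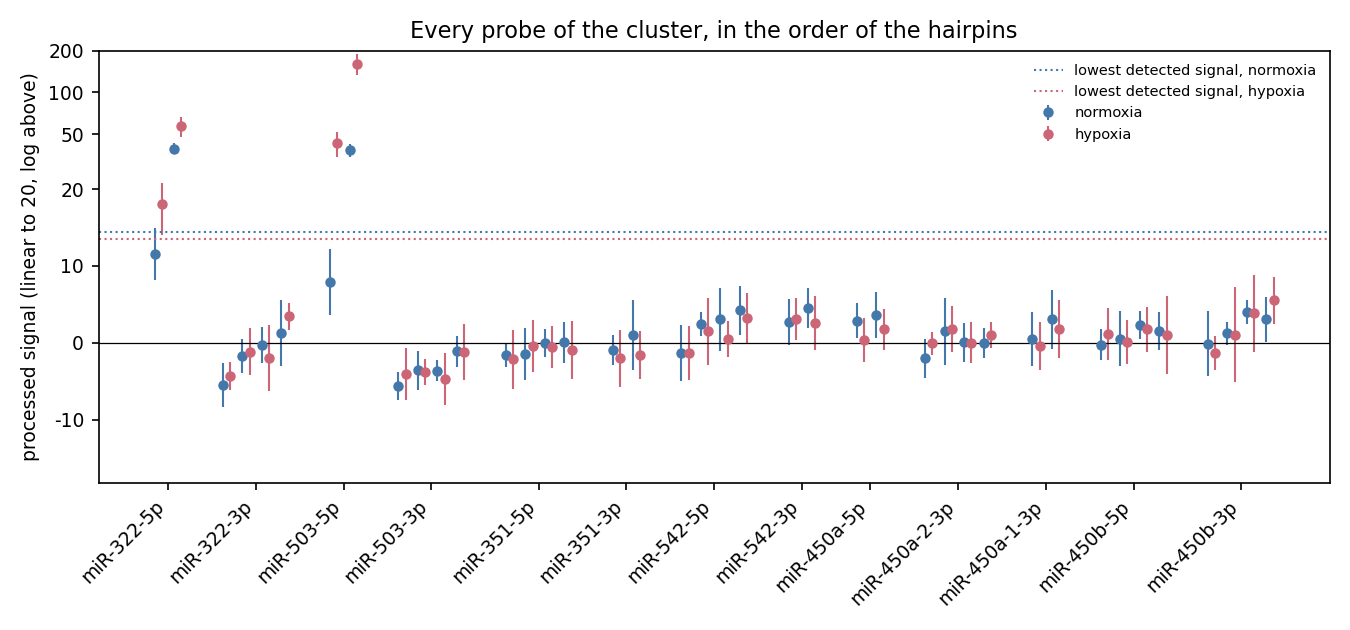
Processed signal of every probe of the cluster on the normoxia and the hypoxia array (mean ± SD over spots), in the order of the hairpins, on an axis that is linear up to 20 and logarithmic above. Dotted lines mark the lowest detected signals, 14.5 in normoxia and 13.5 in hypoxia, and both probes of miR-322-5p and of miR-503-5p lie above them in hypoxia but only the brighter probe of each in normoxia. All other probes lie below them.

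The next question was how far the 2 detected members differed between the conditions. Both were higher in hypoxic exosomes, miR-503-5p by 5.81-fold and miR-322-5p by 2.09-fold after quantile normalization, which gives both arrays the same distribution of signals. Both measured members thus passed 2-fold upwards and 0 downwards. Of the 180 miRNAs measured on both arrays, 18.3% were past 2-fold upwards and 10.0% downwards, that is 33 and 18. This balance turned with the scaling, to 20 upwards and 36 downwards without normalization and to 25 and 30 with the hybridization spike-ins. Under both of these scalings miR-503-5p alone of the members passed 2-fold. Since the members were listed with these results known, the count describes them and does not set them apart.

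The hairpins of the 2 members are shown to place the arm that was seen. The detected 5p arm is in capitals (RefSeq, GRCm38.p6, X chromosome, minus strand).
Mir503: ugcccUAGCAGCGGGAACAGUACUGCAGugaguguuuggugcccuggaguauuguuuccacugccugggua
Mir322: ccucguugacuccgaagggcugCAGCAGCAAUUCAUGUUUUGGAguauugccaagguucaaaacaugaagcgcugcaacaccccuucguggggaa

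miR-503-5p was read by 2 probes. The spots of its brighter probe ranged from 31.4 to 44.9 in normoxia, with a median of 38.7 and a mean of 38.1 ± 3.94 (SD, n = 15 spots). In hypoxia they ranged from 82.4 to 190.4, with a median of 169.5 and a mean of 161.5 ± 27.1 (SD, n = 14 spots). Every hypoxic spot was brighter than every normoxic spot. Without normalization the hypoxic signal was 4.23-fold the normoxic one. After normalization the difference was 2.54 ± 0.075 on the log2 scale (SE over spots).

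Its dimmer probe went the same way. None of 15 spots was well above background in normoxia, with a range from −0.75 to 14.1 and a mean of 7.88 ± 4.29 (SD), whereas all 14 usable spots were so in hypoxia, with a range from 22.1 to 54.7 and a mean of 43.1 ± 8.79 (SD). The spots of the 2 arrays did not overlap. Set against the lowest detected normoxic signal, the normalized hypoxic signal of this probe was at least 4.25-fold higher. This bound was at least 2.97-fold without normalization.

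miR-322-5p also had 2 probes. The spots of the brighter one ranged from 31.2 to 44.3 in normoxia, with a median of 39.3 and a mean of 39.3 ± 3.48 (SD, n = 14 spots). In hypoxia they ranged from 41.4 to 70.2, with a median of 56.7 and a mean of 56.9 ± 9.14 (SD, n = 15 spots). The ranges overlapped at their edges. The signal was 1.45-fold higher without normalization. After it the difference was 1.07 ± 0.069 on the log2 scale (SE over spots).

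The dimmer probe of miR-322-5p was near the limit of detection. In normoxia 1 of 14 spots was well above background, with a range from 3.68 to 16 and a mean of 11.6 ± 3.38 (SD). In hypoxia 11 of 15 were, with a range from 8.18 to 24.4 and a mean of 18.1 ± 4.01 (SD). The spots of the 2 arrays overlapped, and the bound was at least 2.00-fold higher. Without normalization the bound was at least 1.25-fold.

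**Figure D3:**
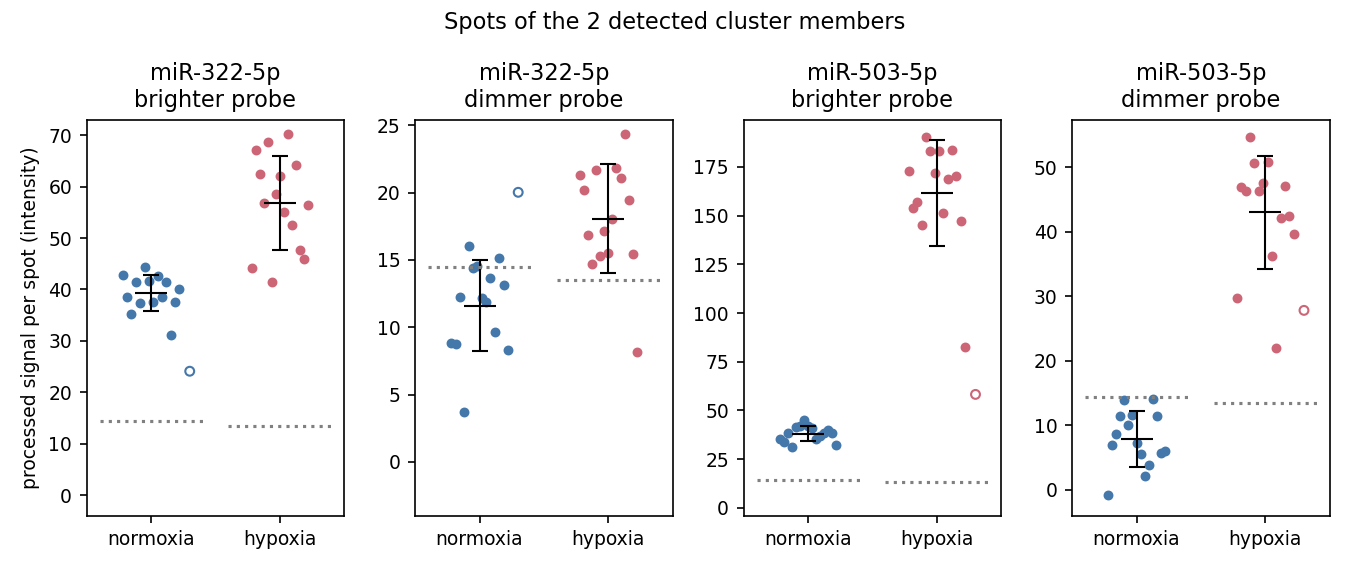
Processed signal of each spot of the brighter and the dimmer probe of miR-322-5p and miR-503-5p, with mean ± SD. Open circles are spots that the software flagged as outliers and that were left out, and dotted lines are the lowest detected signals. The hypoxic spots of miR-503-5p lie wholly above the normoxic ones on both probes, and those of miR-322-5p overlap them.

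The 2 members did not differ to the same extent between the conditions. The log2 difference of miR-503-5p exceeded that of miR-322-5p by 1.47 ± 0.10 (SE over spots), or 2.78-fold. A single factor per array cancels in this value, and any such scaling gave 1.55, or 2.93-fold. The gap was many times its spot error. It was narrower with normexp, another background correction (1.41 for miR-503-5p against 0.47 for miR-322-5p). With the scanner software's summary per miRNA it was wider (2.98 against 1.01). How the gap compares with the spread between cultures was not measured.

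The size of each difference moved with the scaling of the arrays, and the direction did not. The spike-ins named here are control RNAs added at labelling or at hybridization. Over 6 scalings miR-503-5p lay between 2.08, without normalization, and 3.01, where each array was set to its 75th percentile over all probes. Only 9.96% of miRNA spots in normoxia and 8.59% in hypoxia were well above background, so that percentile falls among dim probes. miR-503-5p was past 2-fold under each of the 6 scalings. miR-322-5p lay between 0.53 and 1.46 under the same scalings. It was past 2-fold with quantile normalization, with the 75th percentile of all probes and with the labelling spike-ins (1.01), and less than 2-fold apart with the 75th percentile of detected probes (0.85), the hybridization spike-ins (0.66) and no normalization. Its 2-fold call thus depended on the scaling.

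The median log2 difference of all 180 measured miRNAs was 0.17 and moved with the scaling from −0.27 to 0.66. Relative to it miR-503-5p was higher by 2.37 and miR-322-5p by 0.90 on the log2 scale, which is 5.18-fold and 1.86-fold. Under the scalings by 1 factor per array these relative values were 2.35 and 0.80. By this measure miR-503-5p was past 2-fold and miR-322-5p was not.

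**Figure D4:**
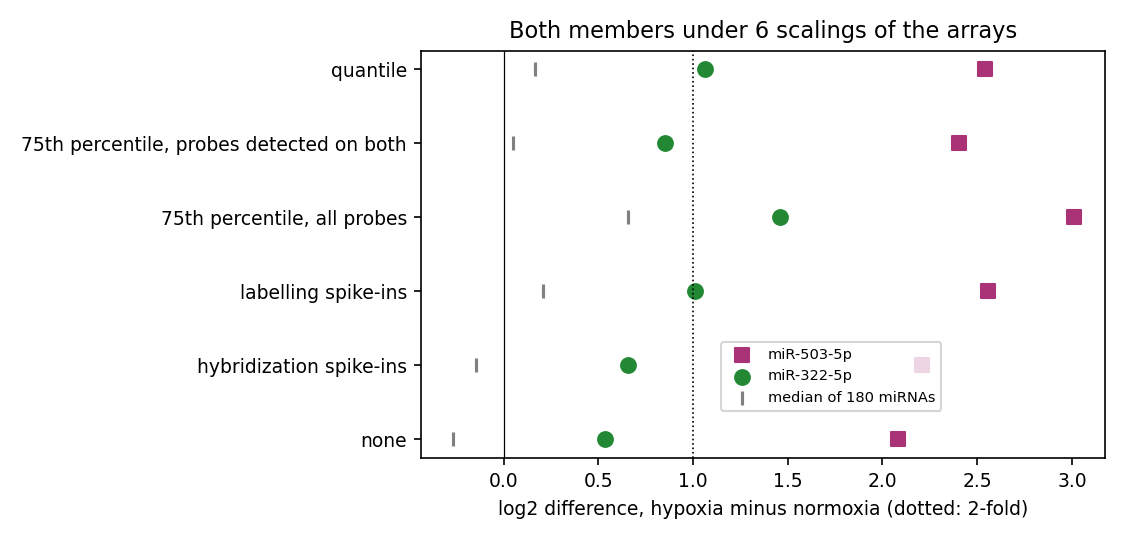
Log2 difference, hypoxia minus normoxia, of miR-503-5p and miR-322-5p and the median of the 180 measured miRNAs under 6 scalings of the arrays. miR-503-5p stays beyond the dotted line at 2-fold, from 2.08 to 3.01, while miR-322-5p lies on both sides of it, from 0.53 to 1.46.

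Among the 180 measured miRNAs, ordered from the largest increase down, miR-503-5p held rank 3 and miR-322-5p rank 30. With scaling by 1 factor per array the ranks were 3 and 32. The neighbours of miR-503-5p in this order were miR-378a-3p at 3.15 ± 0.083 and miR-378b at 2.36 ± 0.066 (SE over spots). Neither interval of 1 SE overlapped that of miR-503-5p. Those of miR-322-5p were miR-5128 at 1.17 ± 0.053 and let-7d-3p at 1.05 ± 0.14 (SE over spots), and both of their intervals of 1 SE overlapped that of miR-322-5p. miR-210-3p, the best known miRNA of the hypoxia response, was at rank 1 with 5.30 ± 0.035 (SE over spots), and its 5p arm was not detected.

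The miRNAs that share a seed with a member were then set beside it. Of the 9 miRNAs outside the cluster with the seed of miR-322-5p, 4 were measured on both arrays, and none of these was 2-fold apart. Their median log2 difference was 0.09, close to the 0.17 of all measured miRNAs. miR-15a-5p was at 0.10 ± 0.024, miR-15b-5p at 0.08 ± 0.040, miR-16-5p at 0.02 ± 0.045 and miR-497a-5p at 0.33 ± 0.12 (SE over spots). All 4 were below 0 without normalization, at −0.24, −0.40, −0.35 and −0.20, so their direction depended on the scaling.

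The brighter probe of miR-16-5p, a repressor of cyclins, gave 4033 ± 307 (SD, n = 15 spots) in normoxia. Its hypoxic signal was 3170 ± 320 (SD, n = 14). For miR-497a-5p the brighter probe gave 34.8 ± 4.85 and 30.2 ± 8.36 (SD over 15 spots each). Without normalization the signals of these relatives were lower in hypoxia, whereas those of miR-322-5p and miR-503-5p were higher. The difference between these groups has no test, since each rests on the same pair of arrays. The remaining 5 miRNAs with this seed, miR-195a-5p, miR-195b, miR-6342, miR-6353 and miR-6419, were detected on neither array.

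Of the 4 miRNAs with the seed of miR-351-5p, miR-125a-5p and miR-125b-5p, known from stem cells and blood development, were measured. They were at 0.63 ± 0.080 and −0.32 ± 0.060 (SE over spots). Without normalization miR-125a-5p was at 0.09 and miR-125b-5p at −0.88. This seed was thus detected in miR-125a-5p and miR-125b-5p while miR-351-5p itself was not detected. miR-6966-5p, the only other miRNA on the array with the seed of miR-542-5p, was not detected.

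A pair of further groups of X-linked miRNAs gave a comparison with the cluster. Of 10 arms of the group of miR-188, miR-362, miR-500, miR-501 and miR-532, 4 were measured, and their log2 differences lay between 0.17 and 1.88 with a median of 0.70 and 1 arm at least 2-fold higher. Of 13 arms of the group of miR-106a, miR-18b, miR-20b, miR-19b, miR-92a and miR-363, 3 were measured and lay between −0.77 and −0.32. Of the latter, miR-19b and miR-92a are also made from a second cluster on another chromosome. The 13 arms were picked by name, so they include arms of that second cluster's hairpins, miR-19b-1-5p and miR-92a-1-5p, which were not detected. The 2 measured members of the cluster had a median of 1.80, between 1.07 for miR-322-5p and 2.54 for miR-503-5p.

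**Figure D5:**
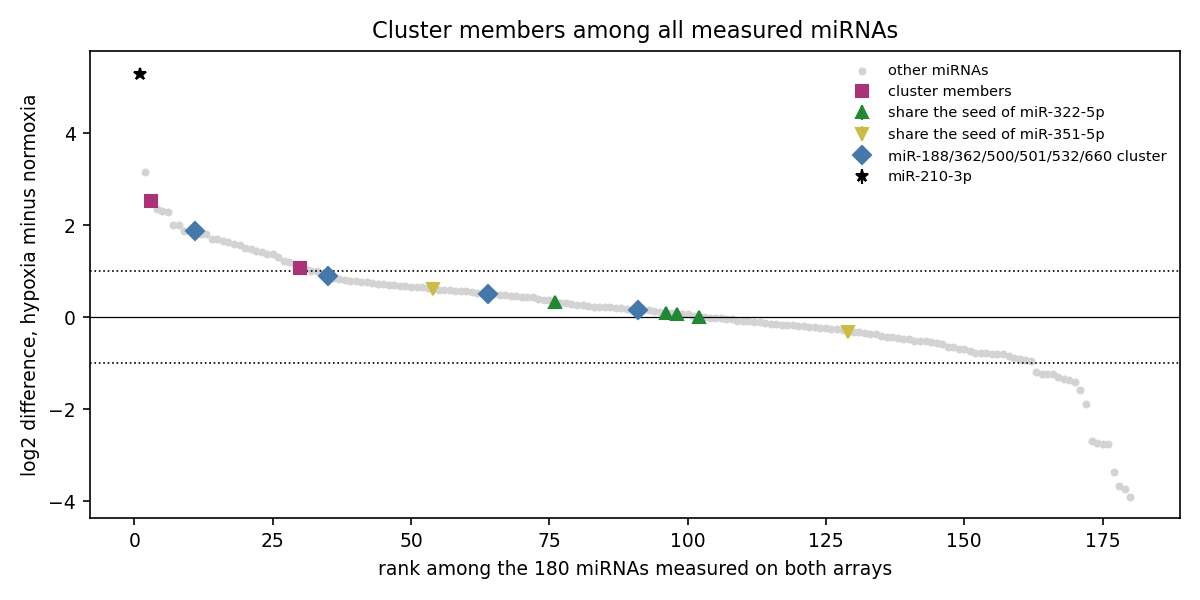
Log2 differences, hypoxia minus normoxia, of the 180 miRNAs measured on both arrays in rank order, with marked groups. Error bars of 1 SE over spots on the marked miRNAs are mostly hidden by their symbols. miR-503-5p (rank 3) and miR-322-5p (rank 30) lie above 2-fold, marked by the dotted lines, and the 4 measured miRNAs with the seed of miR-322-5p lie between 0.02 and 0.33.

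By the absolute gap to the members' median of 1.80, over the 2 arrays, the 5 nearest miRNAs outside the cluster were miR-129-5p at 1.82, miR-5100 at 1.82, miR-188-5p and miR-125a-3p at 1.88 each and miR-361-5p at 1.89. This median lies between miR-503-5p at 2.54 and miR-322-5p at 1.07 and is the value of neither. The miRNAs nearest to each single member are among the neighbours in rank given above. With 1 array per condition, likeness here is that of a single difference.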

How the data were processed

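The 10 members and all lists were chosen with earlier results of these data known. The authors read the array scans with Feature Extraction (version 11.5.1.1 per the file headers), which removes background and a spatial trend and flags spots. The deposited intensity values are this processed signal, with no normalization between arrays, and the series' value table was identical to it at every spot. The other deposited columns used are flags and, for alternatives, the spots' median and background intensity and the software's summary per miRNA. The methods name GeneSpring GX for normalization, and the study's discussion speaks of quantile normalization. Those normalized values are not used here. A spot with 1 or more of 4 outlier flags was dropped (2.96% in normoxia, 3.45% in hypoxia), and saturation was not seen. Spots of each of 4415 probes were then averaged and quantile-normalized between the arrays. A miRNA's log2 difference (hypoxia less normoxia) averages those of its probes that were detected on both arrays. A probe detected in hypoxia alone gave a bound, its signal over the higher of the lowest detected normoxic signal (12.0 after normalization) and its own. A fold of 2 follows the study's text. The named miRNAs are all members and those sharing a hairpin or a seed with them. The others are the neighbours in rank, the X-linked groups, cell type markers with miR-9-3p, miR-210 and the 5 nearest patterns. The steps were tested on simulated spots with as many increases as decreases. In the real arrays this balance depended on the scaling, a situation that the simulation did not cover. SD and SE are over spots inside 1 array and leave out cultures, isolations and labellings. The number of arrays limits the precision. Array and condition cannot be told apart. The array design names mm9, so no coordinates of GRCm38.p6 are given. The labels describe labelling by reverse transcription, the methods a miRNA labelling kit. Tools were Python 3.11.15, R 4.3.3 and limma 3.58.1 (normexp, offset 50).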

Additional observations from a re-analysis of the deposited data

How the results depend on the processing

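No paired analysis was possible because there is a single array for either condition, which also leaves no replicate to omit. Under 13 alternatives 2 members were detected on each array. The scalings, normexp and the value table could not change this count, since detection rests on the scanner software's marks alone. The brightest probe alone and the strictest detection rule left both log2 differences unchanged. Each difference already rested on the single probe of its member that was detected on both arrays. Both log2 differences stayed above 0 under 14 alternatives, from 1.41 to 3.01 for miR-503-5p and from 0.47 to 1.46 for miR-322-5p, while the spot SD was 0.28 and 0.26.

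For miR-503-5p, miR-322-5p and the median of the members in turn, the 75th percentile over all probes as the scale gave 3.01, 1.46 and 2.23. That percentile falls among dim probes. No normalization gave 2.08, 0.53 and 1.31, the hybridization spike-ins 2.21, 0.66 and 1.43, and normexp, which with its offset pulls dim signals together, 1.41, 0.47 and 0.94. The software's summary gave 2.98 for miR-503-5p. The number of members at least 2-fold higher was 1 with no normalization, the hybridization spike-ins, normexp, odd spots and the 75th percentile over commonly detected probes, since miR-322-5p fell under 2-fold. Without a filter on dim probes the median was 0.83 over 7 members, with 3 higher and 1 lower, because dim probes with large errors enter. Of these, miR-322-3p was at 2.38 ± 1.87 and miR-450a-5p at −1.02 ± 1.46 (SE over spots). Apart from the construction of these settings, the cause was not tested. The counts over all measured miRNAs moved as well, from 33 higher and 18 lower of 180 to 58 and 10 with the 75th percentile of all probes, 20 and 36 without normalization, 25 and 30 by hybridization spike-ins, 11 in either direction by normexp, 29 and 9 of 144 with the strictest detection rule (all usable spots of a probe marked), 48 and 26 of 212 by the software's summary, and 182 and 112 of 753 without a filter. Using the value table changed nothing by construction, as it holds the same signal.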
